A study of Mus musculus with 2 samples.

Results

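Genomic-class models are unspliced or nearly unspliced pieces of RNA that long-read annotation placed inside known genes without matching any annotated transcript. They were chosen here as every deposited transcript model of the class named Genomic that was assigned to an annotated mouse gene (an identifier starting with ENSMUSG) on chromosomes 1 to 19. Replicate 1 held 6026 such models among its 85714 transcript models, and replicate 2 held 6799 among 92049, so 12825 of 177763 in all. They carried 25530 of 1349298 reads in replicate 1 (1.89%, 95% Wilson interval 1.87 to 1.92) and 34868 of 1359923 in replicate 2 (2.56%, 2.54 to 2.59), or 2.23% ± 0.475 (SD, n = 2). The models lay in 4960 and 5506 genes. A further 315 and 496 Genomic models, with 972 and 1743 reads, fell outside the rule, and chromosome X held 137 and 153 of them.

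Both libraries were long-read RNA sequencing of gastrocnemius, the large calf muscle, from female mice of the strain B6CASTF1/J, an F1 hybrid of B6 and Cast, aged 2 months. The labels give 1 group and name no treatment. Replicate 1 is animal 3 and replicate 2 is animal 4. Libraries began from 2 µg of total RNA and had spike-in RNA added. The labels give both animals the same donor identifier, so that they are separate mice rests on the animal numbers. With 1 library per animal, the tests below compare the reads of 2 libraries, not conditions, and p-values and intervals cover counting error only.

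The labelled tissue showed its markers: 10 of 10 skeletal muscle fibre genes had reads, and they summed to 279569 and 276575 CPM (counts per 1000000 reads of the library). The libraries stood apart in 2 other marker sets. The 5 adipocyte markers summed to 1111 CPM in replicate 1 and 107 in replicate 2, and the 5 Schwann cell markers to 623 and 88.2. Fewer cells of a type and less RNA per cell cannot be told apart in whole tissue. Endothelial, fibroblast and macrophage sums were close (71.1 and 66.9, 1765 and 1684, 36.3 and 36.8), smooth muscle stood at 131 and 67.7, and red blood cell genes at 88.9 and 113.

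A gene is first copied whole into a precursor RNA. Its introns are then spliced out, and the RNA is cut at a polyadenylation site and given a tail of adenosines. The cut usually follows a short signal, AATAAA or the variant ATTAAA, within a short distance. Long-read libraries primed on adenosine stretches can therefore report the last exon alone, a precursor that still holds introns, an RNA that runs on past the annotated end, or a piece that starts at adenosines inside the transcript. TALON, the program named in the deposited annotation, sorts reads into classes by their splice junctions. Known models match an annotated transcript, ISM (incomplete splice match) models match part of one, and Genomic models overlap a gene but fit neither.

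Sequence is shown for the ends of 10 models from genes with many Genomic reads, with and without a signal, because the 3′ end is the feature that most Genomic models share with annotated transcripts. Each line gives the last 30 bases of RNA up to the model's 3′ end, 5′ to 3′ on the gene's strand, read from GENCODE M21 transcripts (build mm10). Capitals mark AATAAA or ATTAAA. The first 5 ends coincided with an annotated transcript end and held a signal.
Apobec2, chr17:48419231-48419260, minus strand: atagcaacatcAATAAAggaaataagtggt
Mb, chr15:77015487-77015516, minus strand: gtctcAATAAAatatcctgcgagtcctcaa
Plec, chr15:76170974-76171003, minus strand: gcccctcAATAAAagcaattccaaccttca
Tcap, chr11:98384924-98384953, plus strand: tagcactgcAATAAAtgctcagccatgttc
Acta1, chr8:123891769-123891798, minus strand: gcATTAAAgccagccattctgttttgctcc

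The next 3 ends also coincided with an annotated transcript end, and neither signal was found in their last 30 bases.
Ndrg2, chr14:51905271-51905300, minus strand: aaactatagaggaaactgaacagcattgtt
Esrra, chr19:6910977-6911006, minus strand: agaaaaaaaatatactatggagctcaagta
Pvalb, chr15:78191114-78191143, minus strand: ctgtgataaaatacctgaaaagagaaactt

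The last 2 ends lay inside the last exon, away from any annotated end, and held neither signal.
Slc25a4, chr8:46207136-46207165, minus strand: tccctgcccttattaactactaacagactg
Cox6a2, chr7:128205504-128205533, minus strand: atttttttttatataaggaaaatgtgatgt

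Most Genomic reads lay in last exons. A model was placed past the 3′ end when it ended over 50 bases beyond the gene's annotated end, and otherwise within the last exon of an annotated transcript, within an intron, or other. Models within a last exon held 19078 of the 25530 reads in replicate 1 (74.7%, 74.2 to 75.3) and 25250 of 34868 in replicate 2 (72.4%, 71.9 to 72.9), or 73.6% ± 1.63 (SD, n = 2). Intronic models held 1723 and 2327 reads (6.75% and 6.67%, mean 6.71% ± 0.0532). Models running past the 3′ end held 1626 and 3245 reads (6.37% and 9.31%, mean 7.84% ± 2.08). The remaining models held 3103 and 4046 reads (12.2% and 11.6%, mean 11.9% ± 0.389). Of the other models, 915 and 927 crossed an exon border, 108 and 120 began before the gene's 5′ end, and 55 and 52 sat in an exon that is not a last one.

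**Figure D1:**
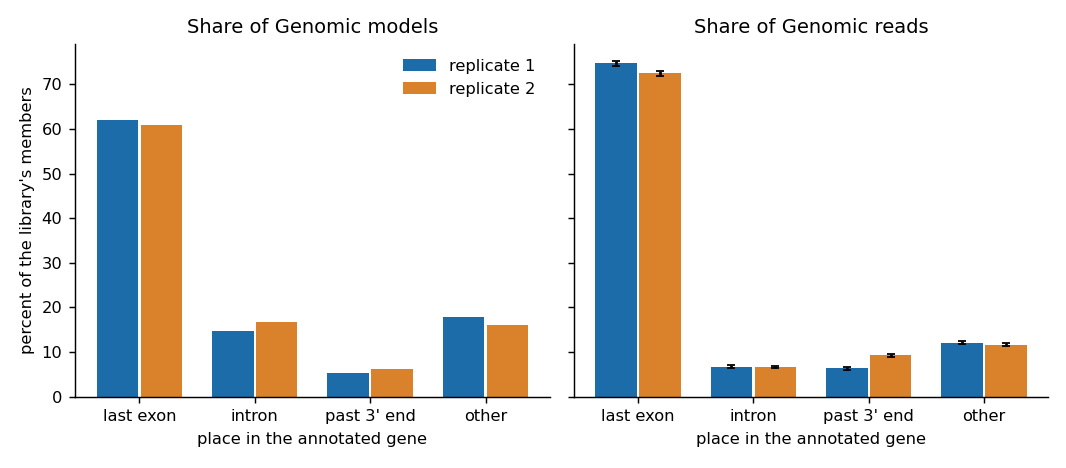
Share of Genomic models (left) and of their reads (right) by place in the annotated gene, in percent of the members of each library; bars are replicate 1 and replicate 2, and error bars on the right are 95% Wilson intervals. Last exons hold 62.1% and 60.9% of models and 74.7% and 72.4% of reads.

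Counted as models, last exons held less and introns more. Last exons had 3740 models in replicate 1 and 4139 in replicate 2 (62.1% and 60.9%), and introns 888 and 1139 (14.7% and 16.8%). A last-exon model carried 5.10 and 6.10 reads on average, an intronic one 1.94 and 2.04, and one past the 3′ end 5.08 and 7.69. A single read supported 43.8% and 45.3% of last-exon models and 78.4% and 72.8% of intronic models. The order of the places by reads also differed between the libraries: models past the 3′ end held fewer reads than intronic models in replicate 1 and more in replicate 2.

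The 3′ ends were exact copies of annotated ends more often than not. In replicate 1, 3425 models (56.8%) with 17278 reads (67.7%) ended at the very base of an annotated transcript end, and in replicate 2 3712 models (54.6%) with 23385 reads (67.1%). Few models ended close to an annotated end without reaching it: 32 and 41 stopped 1 to 50 bases short, and 9 and 18 ran 1 to 50 bases past. Another 1559 and 1854 models (25.9% and 27.3%) ended over 500 bases upstream of the nearest annotated end. The annotated 5′ end was met by 434 and 394 models (7.20% and 5.79%). How the deposited ends were placed is not given in the sources used here.

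Ends at annotated sites held the polyadenylation signal more often than the other exonic ends. AATAAA stood in the last 30 bases of 61.3% of 3398 distinct ends in replicate 1 (59.6 to 62.9) and 62.0% of 3682 in replicate 2 (60.4 to 63.6). With ATTAAA counted too, the shares were 74.7% and 74.9%. Ends elsewhere in annotated exons held AATAAA in 32.1% of 794 and 31.5% of 886. Over all 27711 annotated transcript ends of the genes tested below, the share was 23.4%, and 29.4% with either signal. Only the transcript strand was read, and an end could hold both signals.

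Ends inside exons were followed by adenosines more often than windows at large. A stretch of 20 bases of annotated exon followed 1375 ends in replicate 1 and 1492 in replicate 2 (22.8% and 21.9% of models), and at least 12 of those bases were A in 10.2% (8.69 to 11.9) and 10.1% (8.63 to 11.7). Among ends away from an annotated end the share was 11.5% in each library. The same count over all 15001172 windows of the last exons of genes with Genomic models was 1.39%. Ends in introns and past the 3′ end were not analysed here, because genome sequence was not used.

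Model lengths spread from 1 base to 10084 and 10592 bases. The median was 1215.5 bases in replicate 1 (quartiles 464 and 2292.5) and 951 in replicate 2 (318 and 2263.5). Last-exon models had medians of 910 and 679 bases, intronic ones 1280.5 and 688, and those past the 3′ end 2709.5 and 2799. Most were single-exon; 272 (4.51%) and 264 (3.88%) had 2 or more exons, with 423 and 505 reads.

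A set of models was very short. Models under 50 bases numbered 283 (4.70%) and 418 (6.15%), and they held 2194 (8.59%) and 4950 (14.2%) of the Genomic reads. Of these, 158 and 241 were 1 base long and held 1092 and 2807 reads. Most short models, 238 and 338 (84.1% and 80.9%), ended at an annotated transcript end. In genes with single-exon Genomic models, 84.3% and 83.2% had exactly 1 such model. Read lengths were not analysed here, so whether each read had the span of its model was not tested, and every place above is the place of a deposited span.

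**Figure D2:**
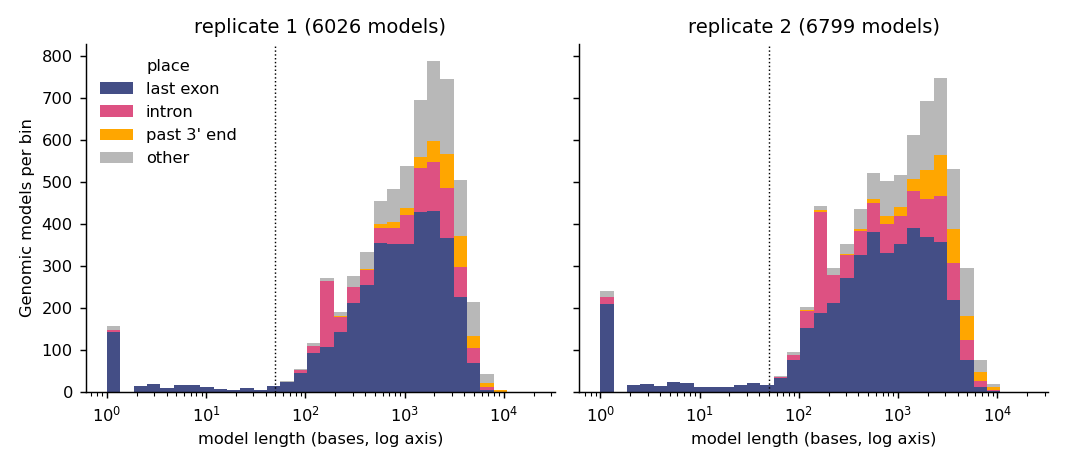
Number of Genomic models by length in bases (log axis), stacked by place, in replicate 1 (left) and replicate 2 (right); the dotted line marks 50 bases. Models of 1 base (158 and 241) stand apart on the left and are mostly in last exons, and intronic models rise in a narrow bin below 200 bases.

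Models that kept whole introns formed a smaller set. Single-exon models spanning at least 1 complete annotated intron numbered 526 in replicate 1 and 534 in replicate 2, with 2456 (9.62%) and 3480 (9.98%) of the Genomic reads. They held 1 intron in 333 and 327 cases and 3 or more in 109 and 127, up to 13 and 17. Models that reached both an annotated 5′ end and an annotated 3′ end with an intron inside numbered 79 and 74, with 652 and 700 reads.

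Tcap and Myadml2 led these end-to-end models. Tcap, which encodes telethonin of the sarcomere's Z-disc, has 2 exons, and its Genomic model at 11:98383811-98384953 spanned both with the intron between them. It had 193 reads in replicate 1 and 175 in replicate 2, and Genomic reads made up 2.96% of 6547 and 3.26% of 5363 Tcap reads. The libraries did not differ beyond counting error there (adjusted p = 1 by Fisher's exact test). Myadml2, annotated at 11:120646031-120648158, was a different case: 176 of its 191 reads in replicate 1 (92.1%) and 163 of 177 in replicate 2 (92.1%) were on 1 unspliced model of 2128 bases, the length of the gene, which held 2 alternative annotated introns. The spans of both models were identical in the 2 libraries. An exon of another gene on the opposite strand overlaps the Myadml2 model, and its part in the count was not tested.

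Single-exon models of the Genomic and ISM classes differed in span, in part through the class definitions themselves. Both are models with no splice junction in an annotated gene, and whether they hold the same kind of read was not tested. None of the 5754 and 6535 single-exon Genomic models had the span of an annotated last exon. A model with that span matches part of an annotated transcript, which is the ISM rule given above. Its absence among Genomic models therefore follows from the sorting and is not a separate result. Of the single-exon ISM models, 1414 of 1699 in replicate 1 (83.2%) and 1372 of 1694 in replicate 2 (81.0%) had exactly that span. The start of a last exon was the start of 5.16% and 4.38% of the Genomic models and of 91.2% and 89.6% of the ISM models. Models of a whole last exon count in the ISM shares alone. Genomic models inside a last exon covered a median of 50.1% and 44.7% of it. Genomic models held 67.9% and 69.1% of the reads of the 2 kinds together.

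A gene's single-exon reads mostly fell under 1 of the 2 classes within a library. Of 689 genes in replicate 1 with at least 10 such reads, 412 had only Genomic ones, 177 only ISM ones and 100 had both. In replicate 2, 573, 199 and 113 of 885 genes were divided in this way. At least 90% of reads were in 1 class in 93.5% and 94.4% of the genes. Which class it was could change between libraries: of 564 genes with at least 10 single-exon reads in each, 315 were mostly Genomic in both and 119 mostly ISM in both, while 59 went from Genomic in replicate 1 to ISM in replicate 2 and 71 the other way.

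The share of Genomic reads within a gene was set side by side in the libraries with Fisher's exact test, two-sided and adjusted by Benjamini-Hochberg. The 4894 genes with 20 reads or more in both libraries were tested. It differed in 204 genes at an adjusted p under 0.05, or 4.17% of those tested. The share was higher in replicate 2 in 131 genes (2.68%) and lower in 73 (1.49%). At an unadjusted p under 0.05, 446 genes differed. The median share was 0% in replicate 1 and 0.457% in replicate 2. Among all tested genes 345 had over 10% Genomic reads in both libraries, 39 had over 50% in both, and 1749 had none.

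Most of the genes called had changed class. In 129 of the 204 genes 1 library had no Genomic read at all, replicate 1 in 75 and replicate 2 in 54. In 126 of the 129 that library had single-exon ISM reads instead, and in 118 of them the other library had none. Together the 129 genes had 5481 Genomic reads in one library and 4952 single-exon ISM reads in the other. The test was therefore repeated on the single-exon reads of every class, an alternative chosen after the data were seen. It called 78 of 4894 genes (1.59%), with a higher share in replicate 2 in 71 (1.45%) and a lower share in 7 (0.143%). Of the 204 genes, 53 were called in both tests, 16 of them among the 129.

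**Figure D3:**
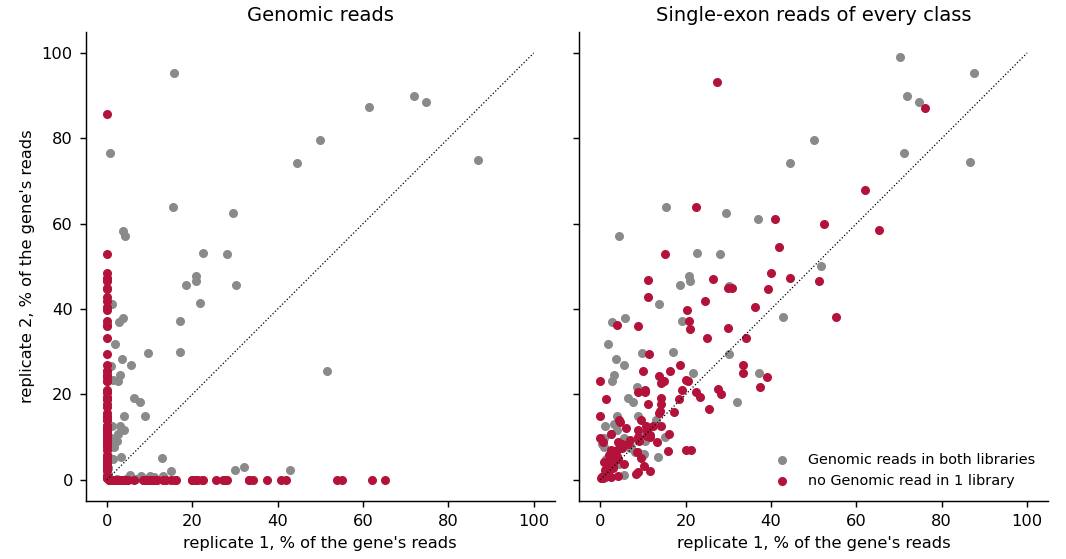
Share of a gene's reads in replicate 1 (x axis) and replicate 2 (y axis), in percent, for the 204 genes whose Genomic share differed; left, Genomic reads, right, single-exon reads of every class; red points are the 129 genes without a Genomic read in 1 library and the dotted line marks equal shares. On the left the red points lie on the axes, and on the right most have left the axes and spread along both sides of the line.

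Slc25a4 had the most Genomic reads of any gene in replicate 1 and none in replicate 2. It encodes the ADP/ATP carrier of the inner mitochondrial membrane in muscle. Replicate 1 had 1413 Genomic reads among 12246 (11.5%) on 1 model at 8:46207136-46207615, which ended 339 bases before the gene's end. Replicate 2 had 0 among 14222, which allows a share of up to 0.0211%, and 1504 single-exon ISM reads on a model at 8:46206797-46207620, the whole last exon of 824 bases. As single-exon reads of every class the shares were 11.5% and 10.6% (adjusted p = 0.378 by Fisher's exact test).

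Acta1 and Klf9 exchanged class in the other direction. Acta1, the skeletal muscle actin, had 0 Genomic reads of 74992 in replicate 1 and 391 of 68399 in replicate 2 (0.572%), all on a 1-base model at its 3′ end. Replicate 1 had 506 ISM reads on its last exon of 384 bases, and the single-exon shares were 0.675% and 0.572% (adjusted p = 0.398, Fisher's exact test). Klf9, a Krüppel-like transcription factor with a last exon of 3452 bases, had 0 of 221 and 233 of 272 Genomic reads (85.7%). Its 168 single-exon reads in replicate 1 were ISM and covered the whole last exon, and the single-exon shares were 76.0% and 87.1% (adjusted p = 0.105 by Fisher's exact test). The counts of 0 in replicate 1 allow Genomic shares of up to 0.00400% for Acta1 and 1.36% for Klf9. In both genes the Genomic share was called and the single-exon share was not.

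The other genes with the largest differences in Genomic share showed exchanges in both directions. Higher in replicate 2 were Gadd45gip1, of the mitochondrial ribosome (1 of 128 and 147 of 192 reads), the kinesin Kif1c (5 of 32 and 40 of 42), the chemokine Cxcl12 (2 of 54 and 21 of 36) and the thioesterase Acot13 (0 of 125 and 131 of 248). Lower in replicate 2, where each had 0 Genomic reads, were Selenot, a selenoprotein (15 of 23 in replicate 1), Ywhag, a 14-3-3 protein (41 of 66), Casz1, a zinc finger factor (16 of 29), Scn4b, a sodium channel subunit (34 of 63), and Nit1 (13 of 31). Single-exon ISM reads in the library with few or no Genomic reads ranged from 8 for Casz1 to 90 for Gadd45gip1. Of these 9 genes, Acot13 alone differed in the single-exon share (15.2% and 52.8%, adjusted p = 3.64e-10 by Fisher's exact test).

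Apobec2 had the most Genomic reads over both libraries and differed under both tests. It encodes a muscle-enriched protein related to the cytidine deaminases and lies at 17:48419231-48432930. Genomic reads were 450 of 1011 in replicate 1 (44.5%) and 1166 of 1569 in replicate 2 (74.3%; adjusted p = 1.15e-49 by Fisher's exact test). All but 1 of them sat on a 1-base model at the annotated 3′ end, whose signal is printed above. Its reads of the Known class numbered 547 and 380.

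Pvalb, Ndrg2 and Cox6a2 were also higher in replicate 2 under both tests. Pvalb, the calcium buffer parvalbumin of fast fibres, had 55 of 1413 and 425 of 1124 Genomic reads (3.89% and 37.8%), most on a model of 4 bases at the 3′ end. Ndrg2 had 157 of 4023 and 469 of 4046 (3.90% and 11.6%) on a model of 13 bases. Cox6a2, the muscle form of a cytochrome c oxidase subunit, had 0 of 1710 and 454 of 2218 Genomic reads. With its 180 ISM reads counted, the single-exon share was 10.5% and 20.5% (adjusted p = 1.34e-14 by Fisher's exact test). An exon of another gene on the opposite strand overlaps the Cox6a2 model.

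In several regulators and structural genes Genomic reads outnumbered all others in both libraries. Esrra, a nuclear receptor that drives mitochondrial genes, had 148 of 198 and 457 of 516 Genomic reads (74.7% and 88.6%, adjusted p = 0.0006 by Fisher's exact test) on a model of 73 bases. Gabarapl1, an autophagy protein, had 77 of 107 and 314 of 349 (higher in replicate 2, adjusted p = 0.000584 by Fisher's exact test). Plec, the giant cytoskeletal linker plectin, had 287 of 330 and 351 of 468 (lower in replicate 2, adjusted p = 0.00137 by Fisher's exact test). The leading Plec model was 5334 bases in replicate 1 and 1711 in replicate 2 with 1 shared 3′ end, inside a last exon of 7412 bases. In each of these genes the leading models of both libraries ended at the same annotated base.

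Mb, the oxygen store of muscle, had 457 of 1514 Genomic reads in replicate 1 (30.2%) and 501 of 1099 in replicate 2 (45.6%; adjusted p = 1.72e-13 by Fisher's exact test), on an identical model of 419 bases. Reads of the Known class numbered 1020 and 562. An exon of another gene on the opposite strand overlaps the Mb model, and likewise that of Esrra.

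A set of leading genes had shares that were not called different. Zfp106, an RNA-binding zinc finger protein, had 198 of 441 and 306 of 604 (44.9% and 50.7%, adjusted p = 0.665 by Fisher's exact test) on an identical model of 674 bases. Srl, the calcium-binding protein sarcalumenin, had 214 of 4045 and 184 of 3809 (5.29% and 4.83%). Ybx3, an RNA-binding cold shock protein, had 152 of 2664 and 167 of 2834 (5.71% and 5.89%), and Mrpl30, of the mitochondrial ribosome, 128 of 240 and 214 of 357 (53.3% and 59.9%). Prr33 had 255 of 441 and 337 of 563 (57.8% and 59.9%). Its leading model was intronic in replicate 1 (7:142502740-142504294) and ran past the gene's 5′ end in replicate 2 (7:142502740-142510421), with 1 shared 3′ end, so 1 end was counted in 2 places. Both models overlap an exon of another gene on the opposite strand, and its part in the count was not tested. Replicate 2 also had 70 ISM reads, and the single-exon shares of 57.8% and 72.1% were called different (adjusted p = 0.00045 by Fisher's exact test).

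**Figure D4:**
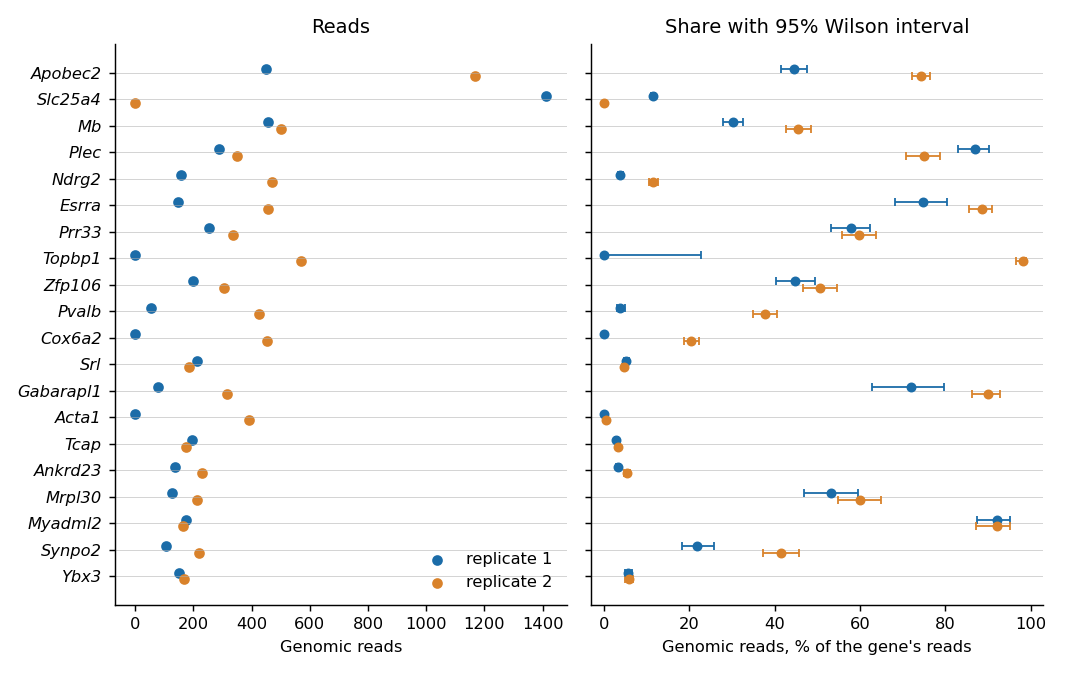
The 20 genes with the most Genomic reads, from the top: left, Genomic reads in each library; right, Genomic reads in percent of the gene's reads with 95% Wilson intervals; blue is replicate 1 and orange replicate 2. Slc25a4 (1413 and 0 reads) and Topbp1 (0 and 570) stand out, while Zfp106, Srl, Tcap, Mrpl30, Myadml2 and Ybx3 have overlapping intervals.

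Past the 3′ end, single models carried much of the signal. Topbp1, a DNA damage response protein, had 570 of its 581 reads in replicate 2 (98.1%) on a model at 9:103347985-103355313 that ran 4885 bases past the gene's end, 17.6% of the reads of this place. Replicate 1 had 13 Topbp1 reads and no Genomic one, so the gene was not tested. In replicate 1, 137 reads on a model of the Antisense class ended at the same base on the same strand (9:103354482-103355313). That base, 9:103355313, is also where the last exon of Cdv3 begins, a gene on the opposite strand whose last exon of 2220 bases lies under the model. The part of reads from the opposite strand was not tested.

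The start of a last exon on the opposite strand was the 3′ end of a few other models as well. Among single-exon models past the 3′ end, 6 of 233 in replicate 1 and 11 of 320 in replicate 2 (2.58% and 3.44%) ended on such a base, with 43 and 701 of their reads (2.92% and 23.0%). The Topbp1 model held 570 of the 701, and without it 131 of 2479 reads (5.28%) remained. Over all places it was 24 of 5754 and 40 of 6535 (0.417% and 0.612%) with 0.331% and 2.64% of reads. In the Antisense class on the same chromosomes it was 109 of 5285 and 180 of 9966 (2.06% and 1.81%) with 3.86% and 1.66% of reads. Lamp1, a lysosomal membrane protein, had such a model in both libraries (8:13173950-13177142, 22 and 27 reads, at Grtp1), and Hhatl had one with 83 reads in replicate 2 at Klhl40. Cdv3, Lamp1, Grtp1, Hhatl and Klhl40 were chosen for naming after their values were seen.

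Nfe2l1 and Ankrd23 had models past the 3′ end in both libraries. Nfe2l1, a stress-response transcription factor, had 136 of 525 and 112 of 500 reads on models reaching 2439 and 2102 bases past its end (25.9% and 22.4%, not called different). Ankrd23, an ankyrin repeat protein of the muscle stress response, had 137 of 4153 and 229 of 4244 (3.30% and 5.40%, adjusted p = 0.000143 by Fisher's exact test) at 979 and 1041 bases past it. An exon of another gene on the same strand overlaps the Ankrd23 model, and its part in the count was not tested. Gm20659 had 45 of 45 and 101 of 101 reads, all Genomic, on models that reached 1091 bases past its end, opposite an exon of Dusp3. Tnni2, the fast troponin I, had 0 of 3945 and 145 of 2490, on a model that reached 1386 bases past its end. Replicate 1 had 82 ISM reads on a model inside the gene (7:142444215-142444408). The single-exon shares of 2.08% and 5.82% were called different (adjusted p = 4.13e-12 by Fisher's exact test).

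As a group, models past the 3′ end reached a median of 1762 and 1619.5 bases beyond it, and 218 of 320 and 284 of 422 went over 1 kb. An exon of another gene on the opposite strand overlapped 160 of the 320 and 218 of the 422, against 11.6% and 11.8% of last-exon models. Of those with at least 10 reads, 42.4% of 33 and 39.2% of 51 had a Genomic model ending within 50 bases in the other library. A further 12.1% and 9.80% met an Antisense model there and 6.06% and 9.80% an Intergenic one, while 39.4% and 41.2% met none. For last-exon models 76.3% of 316 and 74.8% of 421 met a Genomic model. A further 14.9% and 15.0% of them met an ISM model, and 8.86% and 10.2% met none.

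Intronic models were many and thin. Fgfr2, a fibroblast growth factor receptor whose annotated transcripts span 7:130162451-133123350, had 58 of 58 and 120 of 122 reads in the Genomic class, spread over 14 and 29 models. The leading ones had 21 reads in each library and ended at the same base, 7:130663016. Kidins220, a scaffold protein of neurotrophin signalling, had 33 of 46 and 59 of 79 (71.7% and 74.7%), nearly all on a model starting at 12:25021364 of 178 and 160 bases. Fam57b had 64 of 82 and 47 of 74, and Gm20388, annotated over 8:119910841-124345722, had 35 of 57 and 83 of 95 (adjusted p = 0.0145 by Fisher's exact test). Reads of the Known class numbered 0 and 1 for Fgfr2 and 0 and 0 for Gm20388. The leading models of Fgfr2, Fam57b and Gm20388 overlap an exon of another gene on the opposite strand in both libraries. In replicate 1 that of Gm20388 also overlaps one on the same strand. The part of these overlaps in the counts was not tested. An exon of another gene on the opposite strand overlapped 18.0% and 21.7% of intronic models and one on the same strand 6.64% and 5.36%.

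Genomic reads were found in most genes of the contractile apparatus, as a small part of very many reads. Of 42 sarcomere and Z-disc genes, 33 had any (78.6%), against 64.3% of all tested genes. Pooled, they made up 0.460% and 0.716% of the genes' reads, against 2.02% and 2.74% over all genes, and the median share was 0.167% and 0.361%, against 0% and 0.457% over all tested genes. Without Acta1, skeletal alpha-actin, the pooled shares were 0.698% and 0.783%. The share was higher in replicate 2 in 4 and lower in 5 of the 42, where 2.68% and 1.49% of all tested genes were called. On single-exon reads of every class 3 were higher and 1 lower (1.45% and 0.143% of all tested genes), and Tnni2 was in both sets. Among 3 genes chosen after their values were seen, Tnnt3 and Myh4 changed class and Ldb3 did so in part. Tnnt3, the fast troponin T, had 108 Genomic reads in replicate 1 and 171 ISM reads in replicate 2. Myh4, a fast myosin, had 60 ISM and 92 Genomic reads. Ldb3, of the Z-disc, went from 110 Genomic reads to 65 Genomic and 63 ISM reads.

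Metabolic and ribosomal genes also had small pooled shares. In these lists, too, the called counts stand beside 2.68% higher and 1.49% lower over all tested genes, and 1.59% called on single-exon reads. Glycolysis and glycogen genes had pooled shares of 0.231% and 0.464%, with 3 of 20 higher in replicate 2 and none lower, and 1 of 20, Pgm1, on single-exon reads. Nuclear genes of oxidative phosphorylation had 0.240% and 1.22%, with 4 of 41 higher and 2 lower, and Cox6a2 called on single-exon reads. Without Cox6a2 the pooled shares were 0.249% and 0.353%. Cox7a1, the muscle form of another cytochrome c oxidase subunit, had 0 of 420 and 88 of 497 Genomic reads and 47 ISM reads in replicate 1. Cytosolic ribosome genes had 0.258% and 0.678%, and 1 of 42 was called: Rpl4 with 0 of 540 and 47 of 537 (8.75%). On single-exon reads 2 of the 42 were called, Rpl4 among them. Without Rpl4 the pooled shares were 0.276% and 0.117%, so their order turned. Median shares were 0% and 0.171% for the glycolysis list and 0% in both libraries for the oxidative phosphorylation and ribosome lists. Calcium handling genes had pooled shares of 0.144% and 0.347% (0.119% and 0.147% without Pvalb), but median shares of 0.831% and 2.61%, above the 0% and 0.457% over all tested genes. Of the 22 tested, 3 were higher, Pvalb and the junctional protein Jph2 among them, and 2 lower. On single-exon reads 3 of the 22 were higher in replicate 2, again with Pvalb and Jph2 among them, and 0 were lower. Jph2 had 36 of 128 and 47 of 89 reads (28.1% and 52.8%).

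Genes of long span and nuclear regulators had larger pooled shares. The 28 very long genes with reads in the list had pooled shares of 19.3% and 22.0% (136 of 706 and 183 of 831 reads), and medians of 12.9% and 14.3% over the 10 tested. The list stood above long genes at large. The 1224 tested genes with the longest spans, 43550 bases or more, had pooled shares of 4.48% and 5.30% and medians of 1.79% and 1.84%. Pde4d, a cAMP phosphodiesterase, had 31 of 52 and 51 of 76 reads. Splicing factors had 5.43% and 4.21%, with 0 of 29 called by Fisher's exact test against 4.17% of all tested genes, and Hnrnpa2b1 had 47 of 561 and 19 of 479. On single-exon reads 2 of the 29 were higher in replicate 2, against 1.45% of all tested genes. The median splicing factor had 1.35% and 2.44%. Stress and atrophy regulators had 8.54% and 4.65% pooled, with medians of 3.10% and 4.26%. Pdk4, the kinase that restrains pyruvate oxidation, had 67 of 704 Genomic reads in replicate 1 and 1 of 1315 in replicate 2, where 85 were ISM. Without Pdk4 the pooled shares were 7.99% and 10.1%, so their order turned. Fbxo32, the atrophy ubiquitin ligase, had 41 of 139 and 25 of 77. Among listed long noncoding RNAs and host genes, 7 of 17 had Genomic reads in either library. Of all annotated genes with reads, 37.0% in replicate 1 and 41.2% in replicate 2 had them. These 2 values count each library alone, so they are not on the same basis as the 7 of 17. Among tested genes, 2 of 2 in the list had Genomic reads in either library, against 64.3% of all. In the list Genomic reads were 27 of 528 and 22 of 673 (23 of 524 and 6 of 657 without Snhg14). H19 was lower in replicate 2 as 1 of the 2 tested (1.49% of all tested genes). It had 13 ISM reads there, and its single-exon shares of 2.90% and 3.59% were not called different. Neat1 was higher in replicate 2 on single-exon reads (1.45% of all tested genes).

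The lists for other cell types had few genes with enough reads, and their called counts stand beside 4.17% of all tested genes. Adipocyte markers had pooled shares of 2.73% and 5.47% with 0 of 5 tested genes called, and Schwann cell markers 12.2% and 17.6% with 0 of 2. These lists are longer than the marker sets above. All reads of the adipocyte list summed to 2039 and 968 CPM, and those of the Schwann cell list to 689 and 100. Lpl, in the adipocyte list, had 1011 and 1069 reads. The part of these levels in the shares was not tested. Pmp22, a myelin protein, had 67 of 395 and 9 of 84 Genomic reads. Without it the Schwann cell shares were 8.61% and 28.8% (15 of 52 reads in replicate 2), and without Lpl the adipocyte shares were 2.70% and 8.87%. Fibroblast markers had 0.301% and 0.338%, with 0 of 11 called. Endothelial markers had 3.29% and 5.86%, with 1 of 7 called: Esam, an adhesion molecule, at 2 of 64 and 14 of 57 (adjusted p = 0.021 by Fisher's exact test). Without Esam the endothelial markers had 18 of 543 and 17 of 472 Genomic reads. Blood and macrophage markers had 2 of 290 and 7 of 269 Genomic reads and smooth muscle markers 6 of 590 and 5 of 442, with 0 called. Median shares were 0% in both libraries for the adipocyte, fibroblast and smooth muscle lists, 0% and 2.94% for blood and macrophage, 2.27% and 2.08% for endothelial and 8.69% and 10.4% for Schwann cell markers.

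Genes at the other extreme carried many reads and no Genomic one. Of 221 genes with 500 reads or more in both libraries, 56 had 0 in both. Cox5a had 971 and 987 reads, which allows shares of up to 0.309% and 0.304%, and Psmd2, of the proteasome, had 570 and 555, which allows up to 0.526% and 0.541%. A share of 0 did not mean that single-exon reads were lacking: Gys1, glycogen synthase, had 31 and 28 single-exon ISM reads of 574 in each library.

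The pooled share varied with gene structure in both libraries. In the 1223 genes with last exons of 2162 to 24280 bases, 6.15% (6.02 to 6.28) and 6.72% (6.59 to 6.86) of reads were Genomic, and in the 1226 genes with last exons of 12 to 531 bases 0.447% and 0.926%. Genes with 2 annotated exons had 4.21% and 6.33%, those with 3 to 5 exons 4.17% and 4.85%, and those with over 10 exons 1.29% and 1.70%. The 131 genes of 1 exon had 0.233% and 0.428%. Pooled shares were 4.73% and 5.86% in the 1246 genes with the fewest reads and 1.20% and 1.61% in the 1222 with the most. The median gene gave another order: it had 0% and 0% in the genes with the fewest reads and 0.358% and 0.469% in those with the most. By exon number the medians were 0% in every bin of replicate 1, and in replicate 2 0% for 2 exons and 0.658% for over 10. By last exon the medians were 0% in both libraries for the shortest and 3.21% and 3.17% for the longest. These features overlap in the same genes, and their separate parts were not tested.

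**Figure D5:**
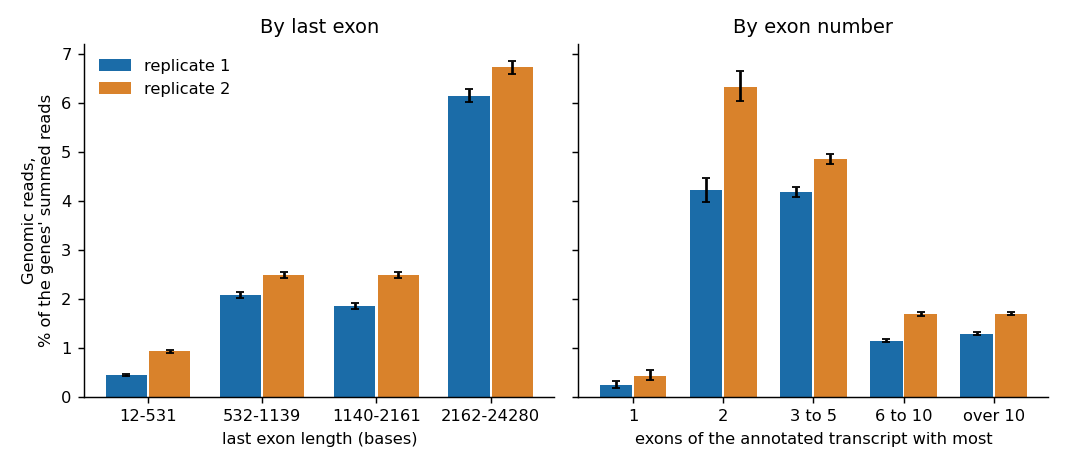
Genomic reads in percent of the summed reads of the genes in each bin, for the 4894 tested genes, by length of the last exon in bases (left, 4 bins of nearly equal gene number) and by number of annotated exons (right); bars are the libraries and error bars 95% Wilson intervals. The genes with the longest last exons stand highest in both libraries (6.15% and 6.72%).

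Genes with Genomic reads overlapped in part between the libraries. Genomic models were found in 7302 genes in either library and in 3164 in both (43.3%), and genes found in a single library had a median of 1 read. Genes of replicate 1 alone held 5345 reads and those of replicate 2 alone 7843. With reads of every class counted, 13420 annotated genes had reads in replicate 1 and 13355 in replicate 2, and 11890 had at least 1 in each. The part of low read numbers in the smaller overlap of Genomic models was not tested. As a description across the 7302 genes with Genomic models, which share the 2 libraries and are not independent, Pearson's r of log2(CPM + 1) was 0.490 and Spearman's rho 0.206. In the 3164 shared genes, the model with the most reads had the same place in 80.4%, the same 3′ end in 56.7% and the same 5′ end in 25.7%. With at least 10 reads in each library (280 genes) these were 93.2%, 75.7% and 39.6%.

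Among single-exon models, Genomic ones had more reads each than Antisense and Intergenic ones and fewer than ISM ones. Genomic models had 4.36 and 5.26 reads each, ISM ones 6.86 and 8.92, Antisense ones 2.84 and 3.81 and Intergenic ones 2.13 and 2.85. Single-read models were 52.0% and 51.7% of the Genomic, 40.3% and 39.4% of the ISM, 69.7% and 63.1% of the Antisense and 76.2% and 72.9% of the Intergenic class. Very short models were most frequent in the Genomic class of these 4. Models under 50 bases numbered 283 of 5754 and 418 of 6535 in the Genomic class, 66 of 5405 and 154 of 10237 in the Antisense class, 5 of 1229 and 4 of 1845 in the Intergenic class, and 1 and 2 among single-exon ISM models. Replicate 2 had more reads than replicate 1 in each of the 3 classes: 34363 against 25107 Genomic, 38968 against 15339 Antisense and 5258 against 2620 Intergenic. Nearly all Genomic reads, 94.3% and 93.2%, were in protein-coding genes. Genes annotated as antisense held 2.22% and 3.34%, and intergenic long noncoding RNAs 1.98% and 2.04%. Reads of every class in these genes were also mostly in protein-coding ones. Of those reads, 24085 of 993969 and 32486 of 1005574 were Genomic in protein-coding genes. In the antisense genes 566 of 1148 and 1163 of 1633 were Genomic, and in the long noncoding RNAs 505 of 1839 and 710 of 2348.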

How the data were processed

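The deposited tables give counts, per the file headers, as whole numbers of reads on each transcript model, without normalization; build mm10 and GENCODE M21 are named in the deposited notes and TALON in the annotation. What aligner, filters and platform were used is not given in the sources used here. Start, end and exons of each model were taken from the deposited annotation of its own library (141862 annotated transcripts, the same in both). Places were set from all annotated transcripts of the gene, with 50 bases allowed past its end. Counts were divided by the library total (1349298 and 1359923 reads) to give CPM, scaled to 1000000 reads. Python 3.11.15, pandas 2.3.3, scipy 1.17.1 and statsmodels 0.14.6 were used. Fisher's exact test with Benjamini-Hochberg adjustment, run over all 4894 genes with 20 reads or more in both libraries, was tested on simulated data. Of 200 of 4894 genes moved by 25 points, 70% were recovered, and 0 of the 4694 unmoved genes were called.

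The models, gene lists and tests were chosen with earlier results of these data known. Genes named are the 20 with the most Genomic reads, the 5 with the most in each place, the 5 highest and 5 lowest shares among genes with at least 500 reads, the 5 largest differences each way, and the 2 with the most Genomic reads of each list. Some items that meet these rules are not reported here. Transcript sequences from GENCODE M21 (GRCm38, mm10) matched the annotated exon lengths in all 52552 transcripts read. Gene starts and ends are those of the annotated transcripts, because the gene records of the 2 annotations differ. No result uses genome sequence, so the planned count of A-rich ends was limited to ends followed by exon.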

Additional observations from a re-analysis of the deposited data

How the results depend on the processing

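With models of at least 300 bases only, the Genomic share of the library was 1.69%, and last exons held 68.3%, introns 6.36%, models past the 3′ end 10.3% and others 15.1% of Genomic reads. With models of 2 or more reads, last exons held 76.4%, introns 4.70% and others 10.7%. With only the last exon ending furthest 3′, last exons held 68.5% and others 17.0%. With the introns of any annotated transcript, introns held 7.98% and others 10.6%. Counting each model a single time, last exons held 61.5%, introns 15.7%, models past the 3′ end 5.76% and others 17.0%. Without the 10 models with the most reads, last exons held 71.8%, introns 7.45% and others 12.5%. These last 2 choices were made after the data were seen. Leaving out each library in turn gave 1.89 to 2.56% for the library, 72.4 to 74.7% for last exons, 6.67 to 6.75% for introns, 6.37 to 9.31% past the 3′ end and 11.6 to 12.2% for others. The 204 genes called became 121 (82 higher and 39 lower in replicate 2) with a difference of at least 10 points required, and 78 (71 and 7) with single-exon reads of every class. With minimums of 1, 10 or 50 reads, Benjamini-Yekutieli adjustment or reads on annotated transcripts alone as the denominator, it was 181, 203, 181, 138 and 160. Of 70 named genes, 64 kept a share within the spread of the libraries with models of 2 or more reads, and 6 moved beyond it. The cause of these changes was not tested. No paired analysis was possible because there is 1 group. The number of reads of a gene limits the differences that can be called, and genes with fewer than 20 reads in a library entered only under the lower minimums.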

Other observations

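Intronic Genomic models were concentrated at 1 length. The most common length of an intronic model was 177 bases in replicate 1 and 176 in replicate 2. Models of 171 to 180 bases made up 81 of the 888 intronic models (9.12%) in replicate 1 and 136 of 1139 (11.9%) in replicate 2, from 79 and 133 genes, and 52 and 102 of them rested on a single read. The neighbouring range of 181 to 190 bases held 16 and 23 intronic models. Among last-exon models the range of 171 to 180 bases held 0.722% and 0.870%. Intergenic single-exon models had the same most common length, 177 bases in each library, and 14.1% and 15.0% of them fell in the range. In the Antisense class the range held 2.59% and 2.31%, and in single-exon models of annotated transcripts 0.505% and 0.512%. The range was chosen after the length histogram had been seen. The sequence of these models was not analysed here.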
